A study of Mus musculus with 267 samples.

Results

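Acetylation of lysine 27 of histone H3 (H3K27ac) was compared between resting macrophages of 2 inbred mouse strains, SPRET/EiJ (SPRET) and C57BL/6J (C57), at the open chromatin regions that both strains share. The strain tables list H3K27ac tags, that is, mapped reads, in windows of 1000 bp centred on peaks of the assay for transposase-accessible chromatin (ATAC-seq). The C57 table held 67742 regions and that of SPRET held 54755, out of 305626 regions in the tables of all 5 strains. A region of each table was matched where each was the other's nearest centre and the centres lay within 500 bp. This gave 39529 matched regions, 58.35% of the C57 table and 72.19% of the SPRET table, and these are the regions compared. A further 27168 regions were in the C57 table only and 14569 in the SPRET table only.

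The series holds 267 samples in 138 groups, and the comparison rests on 4 of its chromatin immunoprecipitation (ChIP-seq) libraries, 2 biological replicates of each strain. Bone marrow of female mice, 8 to 12 weeks old, was cultured for 7 days with macrophage colony-stimulating factor (M-CSF) to give bone marrow-derived macrophages (BMDMs), which were left untreated (basal). C57 is the common laboratory strain whose genome is the mouse reference, and SPRET is a wild-derived strain of Mus spretus. SPRET reads were mapped to the reference mm10 with the known SPRET variants substituted, and their positions were then moved to mm10. Sequence that is missing, rearranged or not uniquely mappable in SPRET therefore loses tags in every assay, and such a loss cannot be told apart from a loss of the mark. A matched region needed an ATAC peak in both strains, and a region in 1 table only has no value for the other strain. In bulk ChIP-seq, fewer cells that carry the mark and less of the mark per cell cannot be told apart.

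H3K27ac is laid down by the acetyltransferases p300 and CBP and marks active promoters and active enhancers. In macrophages these elements are opened by lineage-determining transcription factors, chiefly PU.1 and C/EBPβ, which bind together with AP-1 factors and give access to signal-dependent factors. STAT6 is the factor that interleukin-4 (IL-4) activates, and the nuclear receptor PPARγ and the zinc finger factor EGR2 act downstream of it.

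The central 200 bp of 4 intronic or intergenic regions are shown because these regions had the largest rises and falls of H3K27ac in SPRET. They are named by the nearest gene start and lie on mm10, + strand, at chr14:60805742-60805941 (Mipep), chr4:47103202-47103401 (Galnt12), chr9:123924193-123924392 (Ccr1) and chr3:79864869-79865068 (Fam198b). Capitals mark a match to the C/EBP motif TTGCNNAA, and the letters of SPRET were not analysed here.
Mipep: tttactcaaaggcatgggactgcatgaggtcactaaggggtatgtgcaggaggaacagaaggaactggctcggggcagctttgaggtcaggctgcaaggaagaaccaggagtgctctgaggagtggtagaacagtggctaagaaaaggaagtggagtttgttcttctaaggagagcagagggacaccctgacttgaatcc
Galnt12: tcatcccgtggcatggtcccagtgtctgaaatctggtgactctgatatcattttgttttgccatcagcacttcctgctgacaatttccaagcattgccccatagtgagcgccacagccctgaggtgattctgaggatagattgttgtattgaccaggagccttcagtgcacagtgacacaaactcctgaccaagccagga
Ccr1: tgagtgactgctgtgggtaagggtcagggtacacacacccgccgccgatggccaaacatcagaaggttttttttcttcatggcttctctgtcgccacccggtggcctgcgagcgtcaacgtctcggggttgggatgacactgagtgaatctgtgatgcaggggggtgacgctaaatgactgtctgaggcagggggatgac
Fam198b: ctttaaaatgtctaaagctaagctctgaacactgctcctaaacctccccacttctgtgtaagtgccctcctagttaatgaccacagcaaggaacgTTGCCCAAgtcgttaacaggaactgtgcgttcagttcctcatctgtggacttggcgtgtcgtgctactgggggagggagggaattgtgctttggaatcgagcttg

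The motifs searched on both strands of these windows were GAGGAAGT for PU.1, TGANTCA for AP-1 and TTGCNNAA for C/EBP. A C/EBP match was found in the Fam198b window alone, and the other three windows held no match to any of the motifs. Over the central 200 bp of all 27511 intronic or intergenic matched regions, 11.6% held the PU.1 letters, 20.4% the AP-1 letters and 14.2% the C/EBP letters. A match describes the C57 reference letters and is not a measured binding site.

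The 4 libraries held between 11697459 and 15186052 mapped tags, and the authors scaled each to 10000000, so that 1 read was worth 0.659 to 0.855 tags. Matched regions took 44.88 to 50.29% of the tags of the C57 libraries and 42.06 to 44.46% of those of SPRET. Across matched regions, log2 tags of the C57 replicates correlated at r = 0.939 and those of the SPRET replicates at r = 0.956, against 0.836 to 0.858 between strains, with regions and not samples as the points. The C57 pair differed more than the SPRET pair: the median SD between replicates was 0.364 in C57 and 0.222 in SPRET on the log2 scale. Of 10 macrophage marker genes, 9 had a matched promoter region, and their summed promoter level was 5102 and 4803 tags in C57 and 3693 and 3635 in SPRET. Promoters of T and NK, B, erythroid and megakaryocyte, mast and basophil, and stromal and endothelial markers had no matched region. Of 9 neutrophil markers 3 had a promoter region, summing to 424.7 and 442.1 tags in C57 and 802.7 and 709.2 in SPRET, and of 7 dendritic cell markers 1 had, Zbtb46, with 2.04 and 2.14 tags in C57 and 13.68 and 12.51 in SPRET.

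Basal H3K27ac differed between the strains at about 1 region in 6. By limma on log2(tags + 1), with Benjamini-Hochberg adjustment over all matched regions and a threshold of 0.05 on the adjusted p, 6389 regions (16.2%) were called. Of these, 3623 (9.17%) were higher in SPRET and 2766 (7%) were lower. These shares are the background against which each count below is read. The median log2 difference, SPRET minus C57, was 0.03, and the 5th to 95th percentiles ran from -1.75 to 2.28. Without SPRET replicate 1 or replicate 2, limma takes its spread from the C57 pair alone, and then called 0 regions in each direction, with 6976 and 6571 regions at an unadjusted p under 0.05. On the same reduced libraries, a count test on recovered reads (edgeR) called 2561 and 2003 regions higher and 1645 and 1327 lower.

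**Figure D1:**
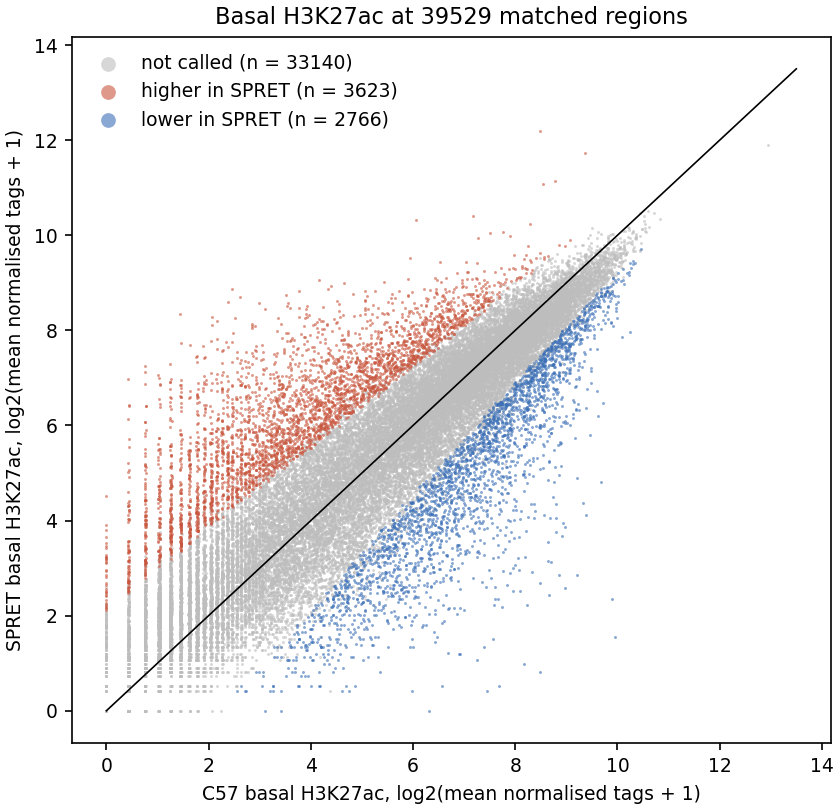
Each point is a matched region, with the mean level of the 2 C57 libraries on the x axis and of the 2 SPRET libraries on the y axis, both as log2(tags + 1). The 3623 regions called higher in SPRET lie above the diagonal and the 2766 called lower lie below it, and both kinds occur along most of the range of levels.

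Fold sizes were described with the study's own thresholds, on the 30002 regions with at least 16 tags in the mean of either strain. At 48.6% of these, the strains lay within 1.5-fold of each other. A difference of at least 2.5-fold with no overlap between the libraries of the strains was seen at 3823 regions higher in SPRET (12.7%) and 2950 lower (9.83%). More than 4-fold separated the strains at 2126 regions higher and 1363 lower. By comparison, the C57 replicates were at least 2.5-fold apart at 10.19% of these regions and the SPRET replicates at 3.593%. The other 9527 matched regions (24.1%) stayed under 16 tags in both strains.

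Called regions were found at promoters, in introns and between genes. Of 9471 promoter regions, as the authors annotated them, 401 (4.23%) were called higher in SPRET and 312 (3.29%) lower. Intronic regions gave 10.6% higher and 8.28% lower of 15803, and intergenic regions 11.2% and 8.58% of 11708. The direction of the calls varied with the level. Regions with a mean of at least 256 tags were called lower more often than higher (504 against 154 of 5534), while regions of 16 to 32 tags gave 722 higher and 347 lower of 4611. The median log2 difference fell along these classes, from 0.29 under 16 tags to -0.25 at 256 tags or more. After quantile normalization of the 4 libraries, an alternative chosen after seeing the data, the medians of all classes lay between -0.08 and 0.01, and 2806 regions were called higher and 2551 lower.

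The largest rises at promoters were in genes with next to no mark in C57. Klrg2, a C-type lectin-like gene, had 2.04 and 4.28 tags at its promoter (chr6:38636820-38637820) in the C57 libraries and 267.6 and 348.4 in the SPRET libraries, a log2 difference of 6.26 ± 0.48 (SE) with adjusted p = 0.000175. St8sia6, a sialyltransferase, went from 7.46 and 0.71 tags to 286.4 and 146.2. Myo1d, an unconventional myosin, had 2.04 and 3.57 tags in C57 and 180.4 and 164.6 in SPRET. Both SPRET libraries stood above both C57 libraries at each of these promoters, which the choice of regions without overlap required. The difference at St8sia6 was 5.76, and it was 6.91 without C57 replicate 1 and 4.6 without replicate 2.

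Mgll, the monoacylglycerol lipase that releases fatty acids from monoacylglycerols, had 2.04 and 1.43 tags at its promoter in C57 and 99.17 and 108 in SPRET (log2 difference 5.26 ± 0.50, adjusted p = 0.000263). Slc27a6, a fatty acid transporter, had 2.71 and 0.71 tags against 72.67 and 122.5. Rras2, a Ras-related GTPase, had 1.36 and 1.43 against 54.71 and 135.7. The C57 values of all 3 lay at a few reads, so the fitted differences depend on the pseudocount of 1 tag, and with 5 tags they were 4.01, 3.91 and 3.84. That of Rras2 was 5.83 without SPRET replicate 1 and 4.54 without replicate 2.

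Away from promoters, the largest rise was at the Mipep intron (chr14:60805341-60806341) whose centre is printed above. Mipep encodes a mitochondrial peptidase, and the region, 21216 bp from its start, had 2.71 and 0.71 tags in C57 and 268.4 and 381.9 in SPRET (log2 difference 6.99 ± 0.53, adjusted p = 0.000175). An intron of Galnt12, a glycosyltransferase that starts mucin-type glycans, had 9.5 and 0 tags in C57 and 239.4 and 370.7 in SPRET (6.53 ± 0.87, adjusted p = 0.00114). The 2 C57 libraries were unlike each other there, and the difference was 8.22 without C57 replicate 1 and 4.83 without replicate 2. With a pseudocount of 5 tags, the differences were 5.62 at Mipep and 5.15 at Galnt12. A region nearest to Selenon, a selenoprotein gene whose start lay 56786 bp away, had 4.07 and 4.99 tags in C57 and 481.3 and 459 in SPRET.

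The remaining distal rises started from 1 or 2 C57 reads summed over both libraries, so they are given as ratios with exact 95% counting intervals, which cover counting error only. The region nearest to Utp6 had 1 C57 read and 353 SPRET reads, a ratio of 378 (67.4 to 15000) after depth was taken into account. The Insc region, named by a gene that orients the mitotic spindle and starts 78590 bp away, had 2 against 417 reads (ratio 223, 61.4 to 1850). The region nearest to Mpp6 had 2 against 379 reads (ratio 203, 55.7 to 1680). Utp6 and Mpp6 are nearest genes only in name, since their starts lay 149274 and 122381 bp away.

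The largest falls at promoters included genes of macrophage effector functions. C1qc, a chain of the complement component C1q that macrophages secrete, had 492.5 and 694.5 tags at its promoter (chr4:136892578-136893578) in C57 and 8.55 and 3.95 in SPRET, a log2 difference of -6.41 ± 0.46 with adjusted p = 0.000175. Fcgr1, the high-affinity IgG receptor, had 685.2 and 643.2 tags at chr3:96293471-96294471 in C57 and 8.55 and 24.36 in SPRET (-5.42 ± 0.48, adjusted p = 0.000223). Cd72, a lectin-type receptor of the CD72 family, had 353.5 and 455.6 tags in C57 and 6.84 and 1.98 in SPRET. These promoters were near the top of the range of levels in C57 and near its floor in both SPRET libraries. Leaving out SPRET replicate 1 or 2 gave -4.71 and -6.12 at Fcgr1 and -7.08 and -5.68 at Cd72.

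Clcn4 encodes a chloride/proton exchanger of endosomes, and its promoter (chr7:7298260-7299260) had 640.4 and 365.8 tags in C57 and 3.42 and 6.58 in SPRET (-6.39 ± 0.48, adjusted p = 0.000175). These positions are those of the C57 window, and the matched SPRET window was centred 367 bp away, so the windows share only part of their sequence. Tnfrsf26, a member of the TNF receptor family, had 284.9 and 187.5 tags against 7.69 and 5.27. A region annotated as a promoter but 134562 bp from the nearest protein-coding start, that of Prex1, a Rac exchange factor, had 391.4 and 579 against 10.26 and 18.44. The mark was high in both C57 libraries at these 3 regions and did not reach 20 tags in SPRET.

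The largest fall of all lay on chromosome 9 at chr9:123923792-123924792, 44400 bp downstream of the start of Ccr1, a receptor for CCL3 and CCL5. It had 1169 and 807.9 tags in C57 and 2.56 and 1.32 in SPRET (log2 difference -8.40 ± 0.45, adjusted p = 3.48e-05), and 53.7% of its letters are soft-masked as repeats in mm10. The neighbouring region, 43164 bp from the start, fell in the same way, from 1012 and 880.6 tags to 4.27 and 3.95. A region 40447 bp from the start had 1431 and 1111 tags in C57 and 806.2 and 607.1 in SPRET (-0.85, adjusted p = 0.0419), and 1 at 31880 bp rose from 32.56 and 74.16 to 116.3 and 207.4 (1.64, adjusted p = 0.0431). Neighbouring elements of 1 locus thus differed in size and in direction of change.

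The other distal falls ended at 3 or fewer SPRET reads. At the Fam198b region printed above, C57 had 1027 reads and SPRET 2, a C57 to SPRET ratio of 480 (exact 95% counting interval 133 to 3970), and the tags were 362.3 and 351.5 against 0.85 and 0.66. Adamts13, the protease of von Willebrand factor, had an intronic region with 835 against 3 reads (ratio 260, 88.7 to 1260). The region nearest to Sfi1 had 583 against 1 (ratio 545, 97.4 to 21600) and was 67.4% soft-masked, and that nearest to Ccdc71l had 499 against 1 (ratio 466, 83.3 to 18500). The starts of Sfi1 and Ccdc71l lay 84460 and 79900 bp away. A region 309124 bp from Pcmtd1 had 86.16 and 70.59 tags in C57 and 0 in both SPRET libraries. Against a floor of 3 reads over the SPRET pair it was at least 70.4-fold lower, and it was the single matched region with 0 tags in both SPRET libraries and 16 or more in both of C57.

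**Figure D2:**
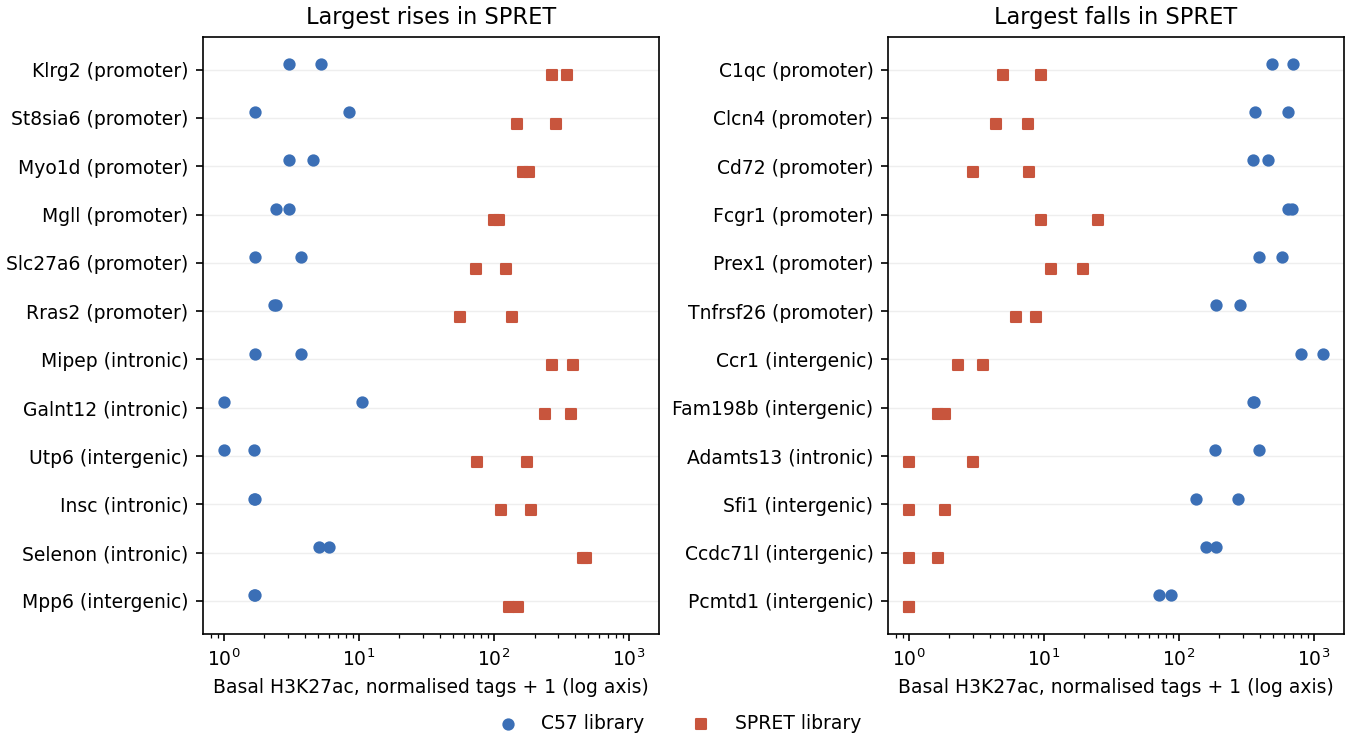
Tags + 1 on a log axis are drawn for each of the 4 libraries at the 12 regions with the largest rises and the 12 with the largest falls in SPRET, named by the nearest gene. The regions were chosen among those whose libraries did not overlap between the strains, so in every row the 2 SPRET points lie apart from the 2 C57 points. The extremes are Mipep (268.4 and 381.9 tags in SPRET) and Ccr1 (2.56 and 1.32).

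Other strains were set beside these values without a test, since their comparisons share the C57 libraries. The Clcn4 promoter had 448.1 and 430.6 tags in PWK/PhJ (PWK), 492.4 and 301.4 in BALB/cJ (BALB) and 468.8 and 259.6 in NOD/ShiLtJ (NOD). SPRET was thus the 1 strain of the 5 with next to no H3K27ac tags in its matched window, which was centred 367 bp from that of C57. Whether SPRET reads can be mapped there was not tested. The C1qc promoter lay between the extremes in PWK, with 42.92 and 164.4 tags, and had 124.9 and 278.8 in BALB and 123 and 462.8 in NOD. Klrg2 had 44.63 and 52.46 tags in PWK, against 9.55 and 6.55 in BALB and 7.48 and 3.97 in NOD.

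A small part of the called regions came in runs along the chromosome. A run was at least 5 neighbouring called regions of the same direction with gaps of at most 100 kb. In all, 31 runs held 197 of the 3623 regions called higher in SPRET, and 25 runs held 142 of the 2766 called lower. Windows less than 1000 bp apart share tags and were counted as separate regions of a run, in Iqsec1 and at the Ifitm genes among others. The longest run lay in Iqsec1, an exchange factor for the GTPase ARF6. There, 12 regions over 51.8 kb (chr6:90749735-90801534) were higher by 1.75 to 5.09 on the log2 scale. At its far end, C57 had 5.43 and 2.14 tags and SPRET 118 and 196.9. Within the run the strongest region had 173 and 74.16 tags in C57 and 518.1 and 539.3 in SPRET, so the run held both marked and nearly unmarked C57 regions.

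Other runs of rises lay in Nek6, a mitotic kinase (10 regions, median log2 difference 2.48), Mreg, a regulator of melanosome and lysosome transport (9 regions, median 4.09), and Nedd9, an adhesion docking protein (9 regions, median 2.70). A run of 7 regions at Itgax and Itgad, the α subunits of integrins CD11c and CD11d, had a median of 2.28. Another of 7 at Ctnnb1, which encodes β-catenin, had 2.64. A run of 7 at Kbtbd12 and Mgll (median 4.06) included the Mgll promoter given above.

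The longest run of falls held 9 regions over 95.06 kb at the Ifitm genes (chr7:140953808-141048872), which encode small interferon-induced membrane proteins that hinder virus entry. The Ifitm6 promoter had 442.3 and 524.1 tags in C57 and 52.15 and 115.2 in SPRET (-2.62 ± 0.40, adjusted p = 0.00223). A region nearest to Ifitm1 had 31.89 and 88.42 tags against 1.71 and 1.32. Just upstream of the run, a region nearest to Ifitm5 went the other way, from 65.13 and 37.08 to 122.2 and 161.3 (adjusted p = 0.0364). The Ifitm genes are close copies of each other, so reads from shared sequence may not be assigned to the right copy.

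All 7 matched regions of Nlrp3, the sensor of the inflammasome that processes interleukin-1β, were lower in SPRET. Its promoter had 921.3 and 769.4 tags in C57 and 326.6 and 266 in SPRET (-1.51 ± 0.27, adjusted p = 0.0046), and the 7 log2 differences ran from -2.41 to -1.45. Fancc, a member of the Fanconi anaemia repair complex, was the nearest gene of another run of 7, with a median of -1.34.

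**Figure D3:**
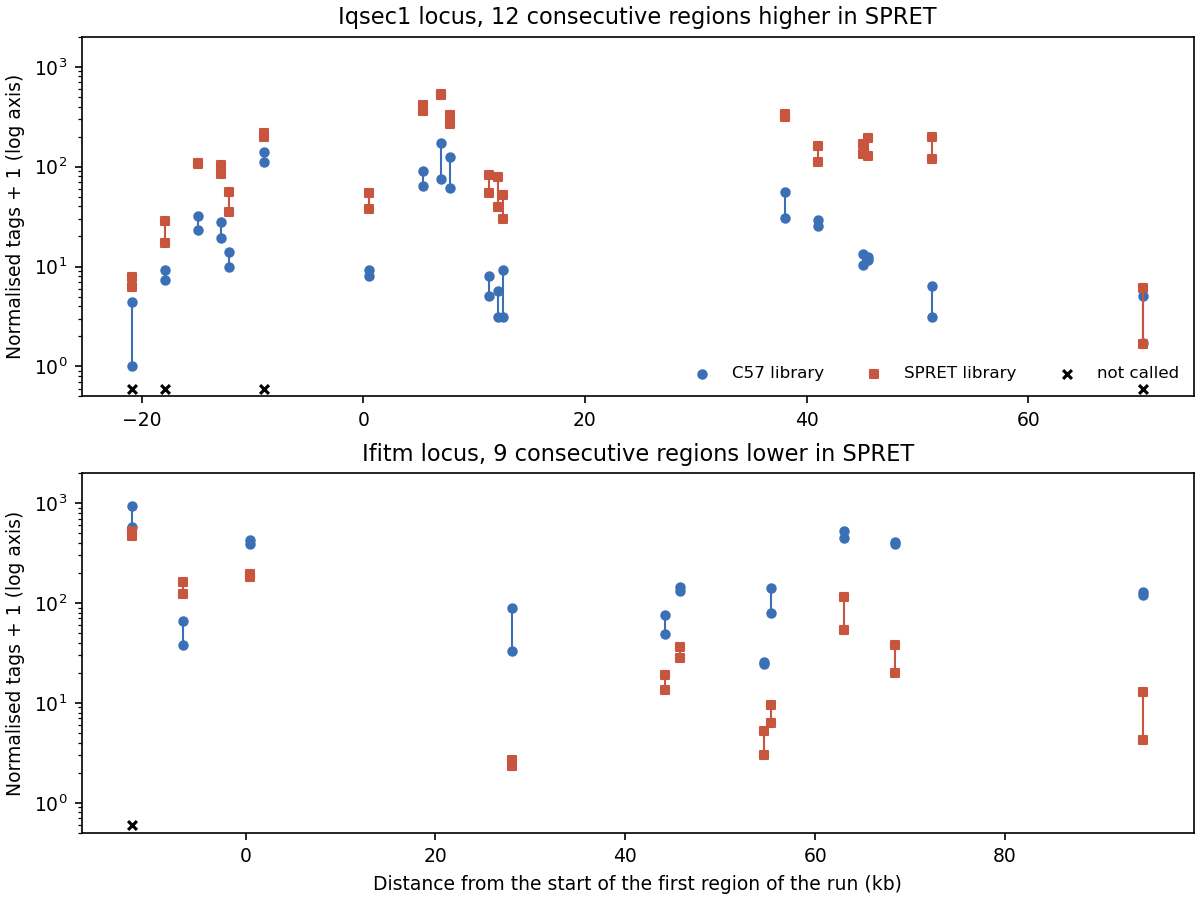
Tags + 1 on a log axis are drawn for each of the 4 libraries at the Iqsec1 and the Ifitm loci. The x axis is the distance in kb from the start of the first region of the run, and crosses mark regions that were not called. At the 12 regions of the Iqsec1 run both SPRET points lie above both C57 points, and at the 9 of the Ifitm run below them. At the region nearest to Ifitm5, at -6.62 kb, the SPRET points lie above the C57 points.

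Neighbouring regions were also counted without regard to runs. Where a region was called higher, the next region along the chromosome, 1 to 5 kb on, was higher in 41.5% of 807 cases and lower in 0.496%. After a region called lower, the next was lower in 37.4% of 660 cases. At more than 100 kb these shares were 12.6% higher after higher and 8.98% lower after lower. Windows of 3172 pairs of matched regions lay within 1000 bp of each other and share tags, and they were left out of these counts.

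Regions were assigned to the nearest protein-coding gene start within 50 kb. Windows less than 1000 bp apart share tags and were counted as separate regions of a gene or list, at Socs3 and Ifitm3 among others. Of 12617 genes with a matched region, 1985 had at least 1 region higher in SPRET, 1495 had at least 1 lower and 182 had both. Counts for gene lists are read against 9.17% higher and 7% lower over all matched regions, and the median log2 difference of a list against 0.03. This background was not matched for level. The median C57 level was 48.17 tags over all matched regions and higher in every list except that of IL-4 genes (28.84). Regions of at least 256 tags gave 2.78% higher and 9.11% lower, with a median of -0.25. The part of level in the counts and medians of the lists was not tested.

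IL-4 pathway and target genes had 178 matched regions, of which 29 (16.3%) were higher in SPRET and 9 (5.06%) lower, with a median log2 difference of 0.48. This list includes genes that the study named on these samples, so its direction is not independent evidence. The cells had received no IL-4. Cdh1, the adhesion protein E-cadherin, had its largest rise 16447 bp into the gene, from 3.39 and 7.84 tags to 68.39 and 116.5 (3.86 ± 0.55, adjusted p = 0.00152), and both other called regions of Cdh1 rose by about 3 on the log2 scale. Rxra, the partner receptor of PPARγ, had 5 regions higher, among them 1 with 95.66 and 49.91 tags in C57 and 442 and 492.6 in SPRET.

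Socs3, an inhibitor of cytokine signalling, also had 5 regions higher, led by 1 at 6798 bp from its start with 50.88 and 26.38 tags in C57 and 227.4 and 276.6 in SPRET. Myc, a growth regulator, had 3 called regions at its start, all higher. Slc7a2, a carrier of arginine and lysine, rose at its promoter from 9.5 and 6.42 tags to 56.42 and 56.63 (2.70, adjusted p = 0.00491) and 11208 bp upstream from 16.28 and 8.56 to 57.28 and 73.75 (2.36, adjusted p = 0.0104).

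Arg1, the enzyme arginase 1 that marks IL-4-treated macrophages, changed in both directions. Its region 2869 bp upstream had 104.5 and 134.1 tags in C57 and 247.1 and 247.6 in SPRET, which missed the threshold (1.06 ± 0.34, adjusted p = 0.0558). A region 22869 bp upstream rose from 12.89 and 31.37 to 135.1 and 192.3 (2.94, adjusted p = 0.00353), and 1 at 15970 bp past the start fell from 40.71 and 57.04 to 11.11 and 8.56 (-2.19, adjusted p = 0.0135). A region upstream of Treml2, a myeloid receptor gene, rose from 21.71 and 34.94 to 80.36 and 128.4 (1.84, adjusted p = 0.0213). The Egr2 promoter was not called (144.5 and 104.8 against 188.1 and 262.7, adjusted p = 0.141). A region 1677 bp upstream of Egr2 rose from 47.49 and 30.66 to 82.92 and 149.5 (1.52, adjusted p = 0.0451). Another, 34150 bp upstream, rose from 2.04 and 1.43 to 9.4 and 10.54 (2.01, adjusted p = 0.0385). The strongest regions of Ripk2, Cd36 and Mmp12 were not called, with log2 differences of -0.10, -0.06 and 0.23. A Cd36 intronic region 8563 bp past the start fell from 91.59 and 223.9 to 41.89 and 42.14 (-1.75, adjusted p = 0.0304). Msx3 and Btbd11 had no matched region.

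Inhibitors of the pathway were among its 9 falls. Cish, a feedback inhibitor of STAT signalling, fell 16208 bp from its start from 272.1 and 236 tags to 43.6 and 16.46 (-3.19 ± 0.48, adjusted p = 0.002), with -3.86 and -2.51 without SPRET replicate 1 and 2. Socs1, which blocks JAK kinases, fell at its promoter from 480.3 and 256 to 55.57 and 106.7 (-2.17, adjusted p = 0.00773). Il4ra, the receptor chain that binds IL-4, had an intronic region with 185.2 and 213.9 tags in C57 and 100 and 71.78 in SPRET (-1.22, adjusted p = 0.0435).

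Interferon response genes had more regions lower than higher, and the C57 replicates were unequal there. Of 78 regions, 21 (26.9%) were lower in SPRET and 6 (7.69%) higher, with a median log2 difference of -0.62, and 10 of 25 promoters were lower and 0 higher. Irf7, the master regulator of type I interferon, had 293.8 and 82.71 tags at its promoter in C57 and 13.68 and 9.22 in SPRET (-3.68 ± 0.59, adjusted p = 0.00275). Mx2, an antiviral GTPase, had 495.2 and 158.3 against 35.05 and 42.8, and Oas2, a sensor enzyme for double-stranded RNA, had 363.6 and 208.9 against 41.03 and 52.02. C57 replicate 1 was the higher C57 library at each of these 3 promoters.

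At the 21 lowered interferon regions, C57 replicate 1 exceeded replicate 2 by a median of 0.846 on the log2 scale, and by more than 2-fold at 10 of them, whereas over all regions called lower the median was -0.021. The list had 18 regions called lower without C57 replicate 1 and 35 without replicate 2. The largest fall was at Ifitm3, 1574 bp past its start, from 141.8 and 78.44 tags to 8.55 and 5.27 (-3.78, adjusted p = 0.0012). Among the 6 rises, Usp18, a protease that removes ISG15 and dampens interferon signalling, went from 8.14 and 13.55 tags to 53 and 52.68 in an intron (2.22, adjusted p = 0.0127).

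Immune gene clusters known to vary between strains had 78 regions, with 11 (14.1%) lower and 4 (5.13%) higher, and a median of -0.44. Slfn5, of the Schlafen family, had 782.9 and 228.2 tags at its promoter in C57 and 85.49 and 59.26 in SPRET (-2.55, adjusted p = 0.00826), while Klra2, a Ly49 receptor gene, had 44.78 and 34.94 against 198.3 and 148.8 (2.09, adjusted p = 0.00608). Members of these clusters are near copies of each other, and their reads could be split or lost in mapping. C57 replicate 1 again exceeded replicate 2 at the lowered regions, by a median of 1.15. The Slfn5 difference was -1.67 without C57 replicate 1 and -3.44 without replicate 2, and the lower count of the list was 6 without replicate 1 and 30 without replicate 2.

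Antigen presentation genes had 8 regions lower (11.9%) and 2 higher (2.99%) of 67, with a median of -0.52. Cd40, a costimulatory receptor, had 69.2 and 60.61 tags at its promoter in C57 and 11.97 and 2.63 in SPRET (-3.26, adjusted p = 0.0065). Cd74, the invariant chain of MHC class II, had 3 intronic regions lower, by 1.80 to 2.23 on the log2 scale, and H2-Eb1, a class II chain, had an intronic region that rose from 51.56 and 8.56 to 138.5 and 140.9 (2.65, adjusted p = 0.0229). The H2-Eb1 difference was 3.88 without C57 replicate 1 and 1.42 without replicate 2, and that of Cd40 was -4.18 and -2.34 without SPRET replicate 1 and 2. The lower count of the list was 4 without C57 replicate 1 and 29 without replicate 2. MHC genes are also near copies that differ in sequence between strains.

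Receptors for antibody and complement moved in both directions, with 10 of 110 regions higher and 10 lower (9.09% each). Beside C1qc and Fcgr1, the promoter of C1qa, another C1q chain, fell from 217.8 and 368.6 tags to 10.26 and 6.58 (-4.94, adjusted p = 0.000256), and Fcgr4, an IgG receptor gene, had 252.4 and 201.8 tags against 28.21 and 39.51. Itgax, the integrin CD11c, had 5 regions higher, among them its promoter (75.31 and 60.61 against 152.2 and 237.7) and 1 with 5.43 and 9.27 against 25.65 and 89.56 (2.60, with 3.48 and 1.71 without SPRET replicate 1 and 2). Trem2, a lipid-sensing receptor, had 2 regions upstream that rose. Without C57 replicate 1 the lower count of this list was 17.

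Pattern recognition genes had 13 regions lower (13.3%) and 3 higher (3.06%) of 98, and 7 of the 13 were those of Nlrp3. Irak3, an inhibitor of Toll-like receptor signalling, fell in an intron from 147.2 and 389.3 tags to 10.26 and 3.29 (-5.11, adjusted p = 0.000639, with -5.81 to -4.41 when a library was left out), while another intronic region had 4.07 and 4.28 tags in C57 and 25.65 and 10.54 in SPRET and was not called (1.76, adjusted p = 0.0719). Nod1, a sensor of bacterial peptidoglycan, had 163.5 and 78.44 tags at its promoter against 24.79 and 17.12 (-2.40, adjusted p = 0.00851).

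Cytokine and chemokine genes had 8 regions higher (7.62%) and 15 lower (14.3%) of 105. A region 3559 bp from the start of Cxcl3, a neutrophil-attracting chemokine, rose from 4.75 and 4.99 tags to 187.2 and 185.7 (5.00 ± 0.45, adjusted p = 0.000246). Il27, an interleukin that limits inflammation, had a region with 9.5 and 2.14 tags against 79.5 and 98.77 (3.96, adjusted p = 0.00223). Ccl6, a macrophage chemokine, had 5 regions lower, led by 1 with 112.6 and 111.2 tags in C57 and 18.81 and 17.12 in SPRET, and Il10, an anti-inflammatory cytokine, had an intronic region with 35.28 and 113.4 against 5.13 and 8.56 (-3.07, adjusted p = 0.00788). This list also holds the Ccr1 regions.

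Scavenger and lectin receptors had 7 regions higher (8.86%) and 11 lower (13.9%) of 79. Havcr2, the receptor TIM-3, rose at an intronic region from 6.78 and 4.99 tags to 160.7 and 137.6 (4.46 ± 0.46, adjusted p = 0.000356), and Stab1, the scavenger receptor stabilin-1, fell in an intron from 493.9 and 539.1 to 129.1 and 116.5 (-2.06, adjusted p = 0.00177). Siglec1, a sialic acid receptor of macrophages, fell at its promoter from 783.6 and 698.8 to 199.2 and 279.2 (-1.65, adjusted p = 0.00419).

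Macrophage lineage factors had 2 regions higher (1.45%) and 9 lower (6.52%) of 138, with a median log2 difference of -0.25, close to the -0.27 of the housekeeping list. Runx1, a factor of blood cell development, had 5 regions lower, including its promoter (350.8 and 393.6 tags against 106 and 106), and 1 higher. Irf8, a factor of monocytes, had a region 16335 bp upstream with 199.5 and 266 tags against 43.6 and 50.7, and 1 at 47941 bp past its start with 6.11 and 9.27 against 42.74 and 43.46 (2.37, adjusted p = 0.0104). A region upstream of Id2, an inhibitor of basic helix-loop-helix factors, fell from 13.57 and 29.95 to 0.85 and 2.63 (-3.03, adjusted p = 0.00992). Without C57 replicate 1 the lower count of this list was 21, and without replicate 2 the higher count was 9.

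AP-1 genes had 3 regions higher (2.91%) and 8 lower (7.77%) of 103. Atf3, a stress-induced member, had 4 regions lower, the largest from 425.4 and 522 tags to 32.49 and 36.88 (-3.73 ± 0.35, adjusted p = 0.000261). Batf, an AP-1 factor of immune cells, had 2 regions higher, the larger from 8.14 and 10.7 to 123.1 and 91.53 (3.37, adjusted p = 0.00129). The higher count was 6 without C57 replicate 1 and 5 without replicate 2.

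Lysosome and protease genes had 8 regions higher (5.33%) and 18 lower (12%) of 150. Ctss, the cathepsin that trims the invariant chain, had 4 regions lower, with 768 and 543.4 tags at its promoter in C57 and 247.1 and 298.3 in SPRET. Mmp8, a collagenase, fell at its promoter from 34.6 and 94.84 to 9.4 and 3.95 (-3.03, adjusted p = 0.00881, with -3.74 and -2.31 without C57 replicate 1 and 2). Lgmn, the protease legumain, had an intronic region 44571 bp from its start that rose from 10.18 and 7.13 to 67.54 and 84.29 (adjusted p = 0.00266). Another intronic region, 2784 bp upstream of the Lgmn start, fell from 58.34 and 50.63 to 18.81 and 19.1 (-1.47, adjusted p = 0.0491).

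Lipid and cholesterol genes had 11 regions higher (6.63%) and 5 lower (3.01%) of 166. Srebf2, the regulator of cholesterol synthesis, changed in both directions. An intronic region of Srebf2 fell from 44.1 and 38.5 to 2.56 and 4.61 (-3.24, adjusted p = 0.0031). Another intronic region rose from 2.71 and 6.42 to 36.76 and 48.73 (3.05, adjusted p = 0.00515). Without C57 replicate 2 this list had 17 regions higher and 20 lower. Housekeeping genes had 1 region higher (1.72%) and 3 lower (5.17%) of 58. B4galt1, a galactosyltransferase, held the rise (8.82 and 14.26 against 33.34 and 42.8, adjusted p = 0.0475) and the largest of the falls (25.1 and 24.96 against 4.27 and 4.61, adjusted p = 0.0155). The lower count of housekeeping genes was 7 without C57 replicate 2.

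**Figure D4:**
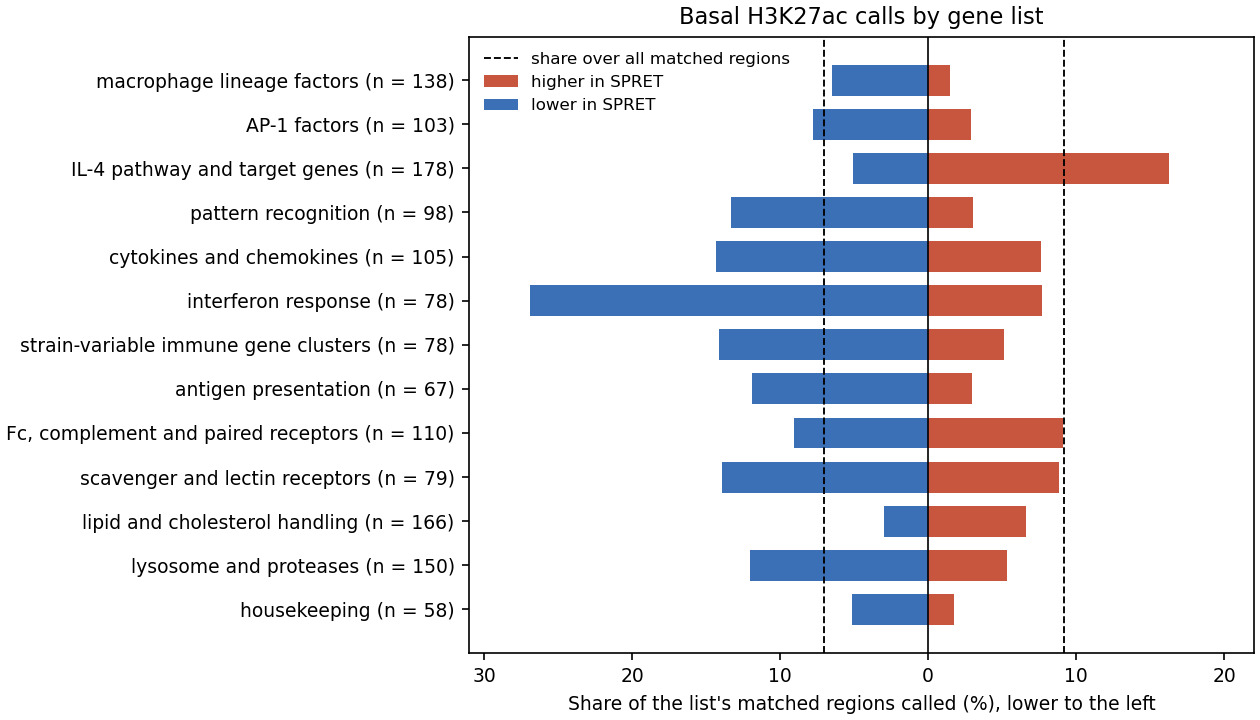
Bars give the share of matched regions called higher and called lower in SPRET for each gene list, in percent, with dashed lines at the shares over all matched regions (9.17% higher, 7% lower). The IL-4 list has the largest share of rises (16.3%) and the interferon list the largest share of falls (26.9%).

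Macrophage marker genes had 1 of 58 matched regions higher in SPRET and 4 lower, and of the 9 with a promoter region the promoters of Fcgr1 and Adgre1 were called, both lower. The Csf1r promoter, of the receptor for M-CSF, had 681.1 and 651 tags in C57 and 677.1 and 741.5 in SPRET (0.09 ± 0.24, adjusted p = 0.85). The promoters of Itgam, Cd68, Mertk, Cd14 and Lyz2 were not called either, with log2 differences from -0.59 to 0.14. That of Adgre1, which encodes F4/80, had 426.7 and 531.2 against 195.8 and 207.4 (-1.24 ± 0.29, adjusted p = 0.0176). A region 14336 bp upstream of Csf1r fell from 222.5 and 223.2 tags to 11.97 and 11.85 (-4.12 ± 0.41, adjusted p = 0.000301), although the promoter itself was not called. The rise was 4409 bp past the start of Lyz2, the lysozyme of myeloid cells, from 99.73 and 72.73 tags to 548 and 383.2 (2.41 ± 0.35, adjusted p = 0.00166).

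Neutrophil genes had 4 of 15 matched regions higher in SPRET and 0 lower. Camp, an antimicrobial peptide of granules, had 30.53 and 2.14 tags at its promoter in C57 and 278.7 and 181.1 in SPRET (4.50 ± 0.85, adjusted p = 0.00582), and S100a8, a calcium-binding protein of neutrophils and monocytes, had 55.63 and 19.25 against 106 and 122.5 (1.76, adjusted p = 0.041). Regions of Elane and Mpo rose as well, at no more than 69.25 tags. Of the 3 neutrophil marker genes with a matched promoter region, that of Csf3r was not called. Clec9a, a dendritic cell receptor gene, had a region with 7.46 and 2.85 tags in C57 and 82.92 and 144.9 in SPRET (4.28, adjusted p = 0.000991). The part of other cell types in the strain differences was not tested.

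Marks that the call did not use were set beside it: H3K4me2, which marks promoters and enhancers, H3K4me3, which marks promoters, RNA polymerase II (Pol II), and H3K27ac after 24 h with 20 ng/mL IL-4. A region counted when its strain means differed at least 2-fold in the same direction with no overlap of libraries. Each strain had 2 libraries of each mark, except for Pol II with 4 in C57 and 3 in SPRET. Among regions called higher, this held for H3K4me2 at 37.2%, for H3K4me3 at 47.7% and for Pol II at 57.9%, against 6.79%, 11% and 9.72% over all matched regions. Among regions called lower it held at 33.7%, 40.7% and 47.7%, against 5.48%, 8.5% and 5.87%. The opposite direction was seen at no more than 1.23% of called regions for any of these 3 marks.

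H3K27ac after IL-4 was higher in SPRET at 87.8% of the regions called higher at rest, against 20.9% over all matched regions, and lower at 57.8% of those called lower, against 8.37%. The scaling bears on these 24 h values. With median-ratio scaling in place of library totals, the shares over all regions became 13% higher and 13.6% lower, and those at called regions 76.1% and 74.3%.

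The shares for promoters and distal regions were counted apart. At promoters called higher, H3K4me2 was higher at 12% and Pol II at 51.1%, whereas at intronic and intergenic regions called higher these shares were 40.5% and 58.9%. The Klrg2 promoter was of this kind, with log2 differences of -0.68 in H3K4me2, 1.76 in H3K4me3 and 5.15 in Pol II. All 3 basal marks followed the call at 556 regions called higher (15.3%) and 417 called lower (15.1%), against 1.59% and 1.42% of all matched regions. At the 24 largest differences, Pol II and 24 h H3K27ac moved in the same direction by more than 1 on the log2 scale in 12 of 12 rises and 12 of 12 falls, and H3K4me2 did so in 6 rises and 11 falls. Tags of all marks were lost together at the Ccr1 region, with log2 differences of -5.23 in H3K4me2, -7.49 in H3K4me3 and -7.30 in Pol II. In the same order, joint losses were also seen at Clcn4 (-4.95, -8.20 and -7.54), Tnfrsf26 (-3.67, -7.46 and -5.34) and Pcmtd1 (-4.32, -6.31 and -4.40). Whether SPRET reads can be mapped at these regions was not tested.

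Transcription factor peaks, called by the authors once per strain and condition, were overlapped with the regions by at least 1 bp. Where PU.1 had a basal peak in SPRET alone (3875 regions), 25.6% of regions were called higher and 1.88% lower. Where it had a peak in C57 alone (2016 regions), 3.32% were higher and 16.5% lower, and where both strains had it (27633 regions) the shares were 7.61% and 7.97%. The direction of the H3K27ac difference thus went with the strain that held the peak.

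C/EBPβ gave the same order, with 19.6% higher and 3.31% lower at 6464 regions with a SPRET peak alone, and 1.5% higher and 29.2% lower at 1204 regions with a C57 peak alone. Where both PU.1 and C/EBPβ had a peak in SPRET alone (969 regions), 44.1% were higher and 0.619% lower, with a median log2 difference of 1.64. Where both had a peak in C57 alone (126 regions), 50% were lower and 0 higher, with a median of -1.79. A PU.1 peak in both strains was present at 69.9% of all matched regions, at 58.0% of those called higher and at 79.6% of those called lower.

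STAT6 peaks of cells without IL-4 in SPRET alone (5139 regions) went with 25.5% higher and 1.77% lower, and those in C57 alone (6078 regions) with 2.09% and 15.7%. For EGR2 the shares were 15.5% higher and 3.72% lower at SPRET-alone peaks and 5.53% and 12.5% at C57-alone peaks. For PPARγ they were 16.2% and 5.16%, and 2.33% and 16.4%. The peak lists differed in size, with 19684 PPARγ peaks in SPRET and 7627 in C57, and 31109 C/EBPβ peaks against 18043, and a peak of a single list has no replicate. Lost mapping would lower a peak and the H3K27ac tags together.

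**Figure D5:**
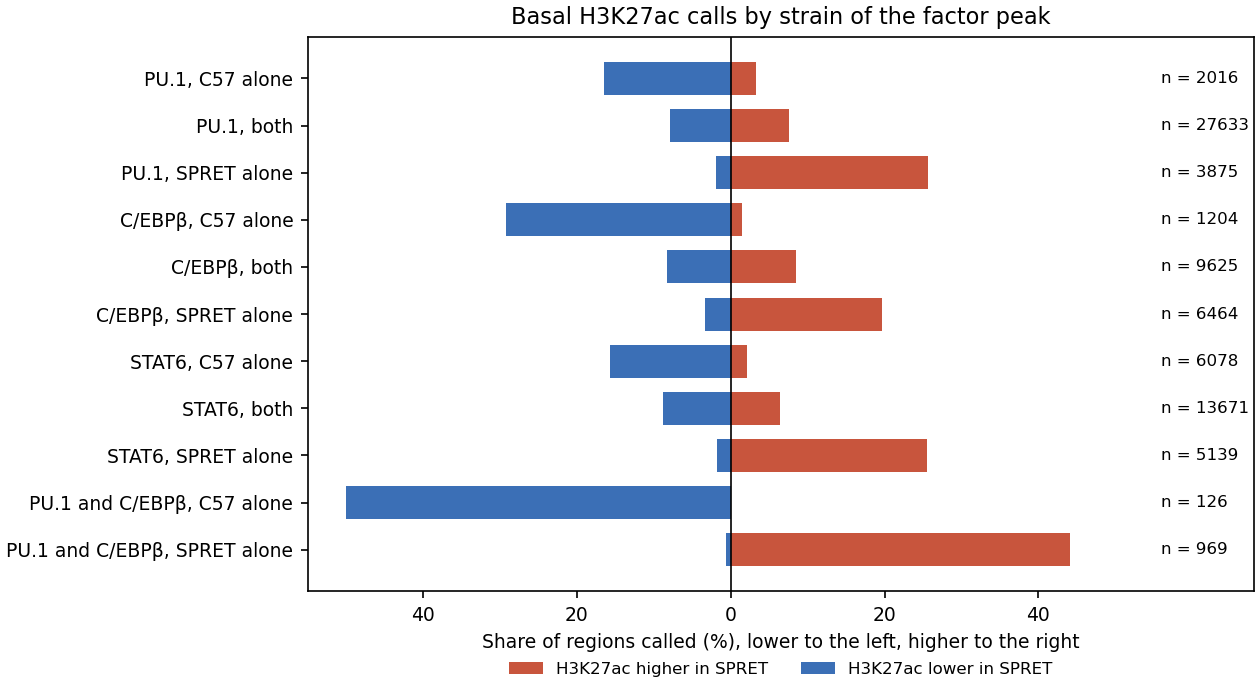
Bars give the share of regions called higher and called lower in SPRET, in percent, for PU.1, C/EBPβ and STAT6. They are split by whether a basal peak was present in C57 alone, in both strains or in SPRET alone. Further bars give the regions where PU.1 and C/EBPβ both had a peak in C57 alone or in SPRET alone. For PU.1, 25.6% of regions with a SPRET peak alone were higher, and 16.5% of those with a C57 peak alone were lower.

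Peaks were also counted at the 24 largest differences. Of the 12 largest rises, 7 had a PU.1 peak, 7 a C/EBPβ peak and 9 a STAT6 peak in SPRET alone, against 9.8%, 16.4% and 13.0% of all matched regions. Of the 12 largest falls, 5 had a PU.1 peak in C57 alone and 6 in both strains, 2 had a C/EBPβ peak in C57 alone and 8 in neither strain, and 6 had a STAT6 peak in C57 alone and 4 in neither. Over all matched regions, a peak in C57 alone was present at 5.1% for PU.1, 3.05% for C/EBPβ and 15.4% for STAT6. The Mipep region had PU.1 in both strains and C/EBPβ, STAT6 and PPARγ in SPRET alone. The Fam198b region had PU.1, C/EBPβ and STAT6 peaks in both strains while its H3K27ac tags were nearly absent in SPRET. An overlap of 1 bp sufficed for a peak to count, and mappability at the region was not tested. At the Ccr1 region PU.1, STAT6 and EGR2 peaks were present in C57 alone, and an ATAC peak was called in both strains.

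Basal accessibility was compared in the same way. Regions with a basal ATAC peak in SPRET alone (2219, with the C57 peak called only after IL-4) were higher in 16% and lower in 2.97%. Those with a basal peak in C57 alone (6275) gave 7.49% higher and 10.3% lower, and those with a basal peak in both strains (29823) 8.92% and 6.75%.

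Letters of the C57 reference were counted in the same classes, without a test. Among intronic and intergenic regions, the C/EBP letters were in 19.0% of the 2985 called higher and 13.1% of the 2313 called lower, against 14.2% of all. The PU.1 letters were in 10.8% and 14.1%, against 11.6%, and the AP-1 letters in 21.6% and 25.8%, against 20.4%. Median GC content over all kinds of region was 48.7% in regions called higher and 47.9% in those called lower, against 50%. The share called lower was 5.47% where under 10% of a region was soft-masked and 10.4% where 50% or more was, and the share called higher was 8.31% and 9.82%.

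Regions found in 1 table only carried little H3K27ac in their own strain. The median was 9.05 tags at the 27168 regions of the C57 table only and 8.39 tags at the 14569 of the SPRET table only, against 48.2 and 52.1 at matched regions. At least 64 tags were seen at 18.9% and 15% of them. Among the C57-only regions, PU.1 had a peak in C57 alone at 18%, in both strains at 30.8% and in neither at 45.6%. Among the SPRET-only regions, it had a peak in SPRET alone at 33.8%, in both at 29.7% and in neither at 34.4%. At matched regions the shares were 5.1% for C57 alone and 9.8% for SPRET alone.

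The strongest of these were near a region of the other table all the same. Sirpa, a receptor for the CD47 signal, had 2014 and 1316 tags at a region of the C57 table only, and the nearest SPRET centre lay 661 bp away. Mpeg1, the pore-forming protein perforin-2, had 1548 and 932.7 tags with the nearest SPRET centre at 806 bp. In SPRET, the strongest were near Frmd8 (979.7 and 1058 tags) and Sik1, a kinase (941.2 and 1043), with C57 centres at 758 and 679 bp. With matching at 1000 bp, 23598 regions of C57 and 12893 of SPRET remained in 1 table only.

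SPRET had the largest share of differing regions among the strains. The share of regions past 2.5-fold with no overlap was 22.58% in SPRET, 18.21% in PWK, 3.617% in BALB and 4.899% in NOD, by the same rule and the same C57 libraries. The share within 1.5-fold of C57 was 48.6%, 52.28%, 79.78% and 73.87% in the same order. These shares rest on 2 libraries a strain, were not tested, and are given side by side.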

How the data were processed

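The authors aligned the ChIP-seq reads of a strain (Bowtie2) against mm10 carrying that strain's known variants, or mm10 itself for C57, moved positions to mm10, and counted tags with HOMER within 500 bp of the centres of reproducible ATAC-seq peaks (basal and 24 h IL-4 merged). The deposited values are signal: tags scaled to 10000000 per library. The deposited factor peaks, called by the authors with HOMER and filtered for reproducibility once per strain and condition, carry a score; only their positions were used here. Of 1.41521e+06 deposited signal values, 100% were whole reads within 0.1 reads once the scaling was undone, and on these recovered reads edgeR called 3460 regions higher and 3075 lower. Totals were 11697459 to 15186052 tags per library, and 16 tags stand for about 19 to 24 reads.

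Regions of the C57 and SPRET tables were matched as mutual nearest centres within 500 bp. The 4 basal H3K27ac libraries were compared by limma 3.58.1 (R 4.3.3, trend) on log2(tags + 1), SPRET minus C57, with Benjamini-Hochberg adjustment over all 39529 matched regions and a threshold of 0.05. With 2 libraries a strain, p-values measure the spread between these libraries. The fold rule took 2.5-fold between means plus 1 tag, with at least 16 tags in either mean. Alternatives were a pseudocount of 5, filters on the mean, median-ratio scaling, a replicate block, edgeR 4.0.16, DESeq2 1.42.0, matching at 100 bp and leaving out each library; quantile normalization and edgeR without each library were added after the data were seen. The fit was tested on simulated data.

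Each region was given the nearest start of a protein-coding gene (GENCODE vM21, 21875 genes), within 50 kb for gene lists, because the tables hold transcript accessions only. The named regions were, per direction, the 6 promoter and the 6 intronic or intergenic regions with the largest difference past the fold rule without overlap, the largest rise and fall of each list, and the strongest promoters of macrophage markers and regions of genes that the study names; other regions of listed genes were chosen after their values were seen. Members and lists were chosen with earlier results of these data known. Sequences were read from the RefSeq genome GRCm38.p6 (mm10), whose letters were identical to 950 of 950 promoters compared; 9 regions on unplaced contigs were left out there. The regions of 2 genes that this rule names are not reported here.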

Additional observations from a re-analysis of the deposited data

Results flagged for a closer look

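Pol II had 4 basal C57 libraries, which allowed a check for a library far from the others (the gap to the nearest value over the range, against Dixon's 95% limit) at the 61 named regions. It marked 6 regions, and chance alone marks about 1 in 20. Replicate 1 was the high library at the regions of Mgll (24.96 tags, with the other libraries at 1.01 to 4.81), Slc27a6 (28.08, others 0.54 to 4.05), Havcr2 (6.86, others 1.07 to 2.03), Slc7a2 (30.57, others 1.01 to 3.21) and Treml2 (40.56, others 8.83 to 10.7). Replicate 3 was the high library at the Adgre1 promoter (417 tags, others 251 to 278). These are Pol II values and do not enter the H3K27ac calls.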

How the results depend on the processing

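The 3623 regions called higher and 2766 called lower stayed within 1.5 times of these counts with a pseudocount of 5, with filters on low means, with median-ratio scaling, with edgeR, with DESeq2, with matching at 100 bp and with quantile normalization. Of the calls, edgeR shared 3393 and 2736, and quantile normalization 2671 and 2350. With the replicate number as a block, 5606 were higher and 4527 lower; same-numbered libraries of the strains deviated together at r = 0.237, but the 2 pairs share only a number, so the block is no pairing of samples. Leaving out each library in turn, limma called 0 to 4489 higher and 0 to 3342 lower, the counts of 0 arising without either SPRET library, and edgeR, added after the data were seen, called 2003 to 5231 higher and 1327 to 5613 lower (without C57 replicate 1 4927 and 5613, without C57 replicate 2 5231 and 4730, without SPRET replicate 1 2561 and 1645, without SPRET replicate 2 2003 and 1327). A limit of 4-fold left 2126 and 1363 regions. Of 61 named regions, 49 were called, and all 49 were lost by limma without either SPRET library; apart from that, the B4galt1 rise was lost with median-ratio scaling, edgeR, DESeq2 and without C57 replicate 1, the Id2 fall without C57 replicate 2, and the Itgax rise without C57 replicate 1. The Arg1 region 2869 bp upstream was called with the block (adjusted p = 0.0239), with DESeq2 (0.0456) and without C57 replicate 2 (0.0202), the Egr2 promoter without C57 replicate 1 (0.0499), and the Irak3 rise with the block (0.0104). Leaving out a library turned the sign of 6 regions that were not called, whose log2 differences then ran from -0.23 to 0.51 for Itgam, -0.26 to 0.11 for Mertk, -0.15 to 0.35 for Lyz2, -0.59 to 0.40 for Ripk2, -0.30 to 0.18 for Cd36 and -0.08 to 0.54 for Mmp12. The median of each of the 13 gene lists kept its sign under quantile normalization, while the counts of calls went from 8 to 4 for cytokine rises, from 2 to 1 and 8 to 5 for antigen presentation rises and falls, from 11 to 7 for scavenger receptor falls, from 5 to 3 for lipid falls and from 1 to 0 for housekeeping rises (0 also with median-ratio scaling). The cause of these changes was not tested. Depth limits weak regions most: 9527 matched regions were under 16 tags in both strains.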
